A study of Mus musculus with 8 samples.

Results

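Rab GTPases, the small switch proteins that give membrane compartments their identity, were taken from the deposited tables by symbol: Rab followed by a number and at most a letter and a further digit. This rule found 57 genes among the 15853 listed. Effector and regulator genes such as Rab3ip or the Rab11fip group were left out of the family and are described separately. The knockout cells had the genotype Mirc11fl/fl Mirc22fl/fl Lyz2Cre/Cre and the control cells Mirc11fl/fl Mirc22fl/fl Lyz2+/+, with 4 RNA-seq libraries of each. Both groups thus carried loxP-flanked alleles of the Mirc11 and Mirc22 loci, which hold the genes of miR-23, miR-27 and miR-24, and the knockout alone carried Cre, on both copies of the lysozyme gene Lyz2, which is active in myeloid cells. Primary mouse bone marrow cells of both genotypes had become macrophages over 7 days in medium conditioned by L929 fibroblasts. They then received 250 uM palmitate (C16:0), 25 mM glucose and 10 nM insulin for 24 h, a treatment called metabolic activation. Neither the age nor the number of the animals is stated in the labels.

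A Rab protein cycles between a GDP-bound form held in the cytosol and a GTP-bound form on a membrane. Guanine nucleotide exchange factors (GEFs) switch it on, GTPase-activating proteins (GAPs) switch it off, and prenylation with the GDI and REP chaperones lets it enter and leave membranes. On the membrane it recruits effectors that tether vesicles, move them on motors or sort their cargo. In macrophages these steps carry receptors to the surface, drive phagosomes and endosomes towards the lysosome, and release cytokines.

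All values below come from one comparison, knockout over control, made by the authors with DESeq2, and a gene is called where their adjusted p is under 0.05. The table gives a mean over all 8 libraries, a log2 fold change and its standard error (SE). Values per library stand under headings that match no sample label and were not used, so levels in each group were derived from the mean and the fold change and have no SD. Since the header leaves the numerator unnamed, the direction was taken from Lyz2, which lies at chr10:117277331-117282321 (mm10) and carries the Cre insertion, so the gene is no independent check of the labels. The authors' deposited table gave it a log2 fold change of -9.10 (SE 0.42, DESeq2 adjusted p = 6.25e-102). The 20 macrophage markers listed were all present, with means between 3921 and 311648 normalized counts. In that list 1 gene was called higher (5.0%) and 9 lower (45.0%) in the authors' deposited table, against 8.14% and 17.6% of all genes with a mean of at least 1000. The 9 include Lyz2 itself, from which the direction was taken. Stromal and fibroblast markers were higher in the knockout, with 18 of 19 called and none lower in the authors' deposited table. Their summed derived level was 9214 normalized counts in knockout cells and 2563 in control cells. Of 14 neutrophil and dendritic cell markers, 6 were listed, with means of at most 76.8 normalized counts. Elane and Siglech had no adjusted p, and none of the other 4 was called. It is not stated whether each library came from its own animal, so the p-values measure only the spread between these libraries, part of which may be technical.

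Most Rab genes were not called different between knockout and control macrophages. Of the 57 genes, 55 had an adjusted p, and of these 12 were called lower, 2 higher and 41 were not called in the authors' deposited table. The called share was 25.5%, against 23.0% of all 14619 tested genes, so that the family as a whole was called about as often as any other gene. The share called lower was 21.8%, against 11.7% of all genes, and the share called higher 3.64%, against 11.3%. The shifts of the members called lower ran from 7.32% for Rab14 to 22.7% for Rab23. Rab38 and Rab34, the members called higher, were raised by 82.1% and 21.6%. The median log2 fold change was -0.07 over tested members and 0.00 (-0.004) over all tested genes.

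The split differed with level. Genes with a mean of at least 1000 normalized counts were called in 25.8% of cases, 17.6% lower and 8.14% higher, and genes under it in 19.9%, 5.14% lower and 14.8% higher, and 35 of the 55 tested Rab genes lay above it. Of those 35, 10 were called lower (28.6%) and 1 higher. Of the 20 below, 2 were called lower and 1 higher. The number of lower calls also depended on the scaling. With fold changes centred on their median, 11 Rab genes were called lower and 2 higher, against 11.3% and 11.5% of all genes. The summed group means differed by -0.063 on the log2 scale, and by -0.053 with Lyz2 left out. With fold changes shifted so that the summed group means, Lyz2 included, were equal, 4 Rab genes were called lower and 2 higher. Under that scaling 6.57% of all genes were called lower and 16.0% higher. Rab23, Rab7b, Rab11b and Rab29 kept the call as lower, and Rab34 and Rab38 the call as higher.

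**Figure D1:**
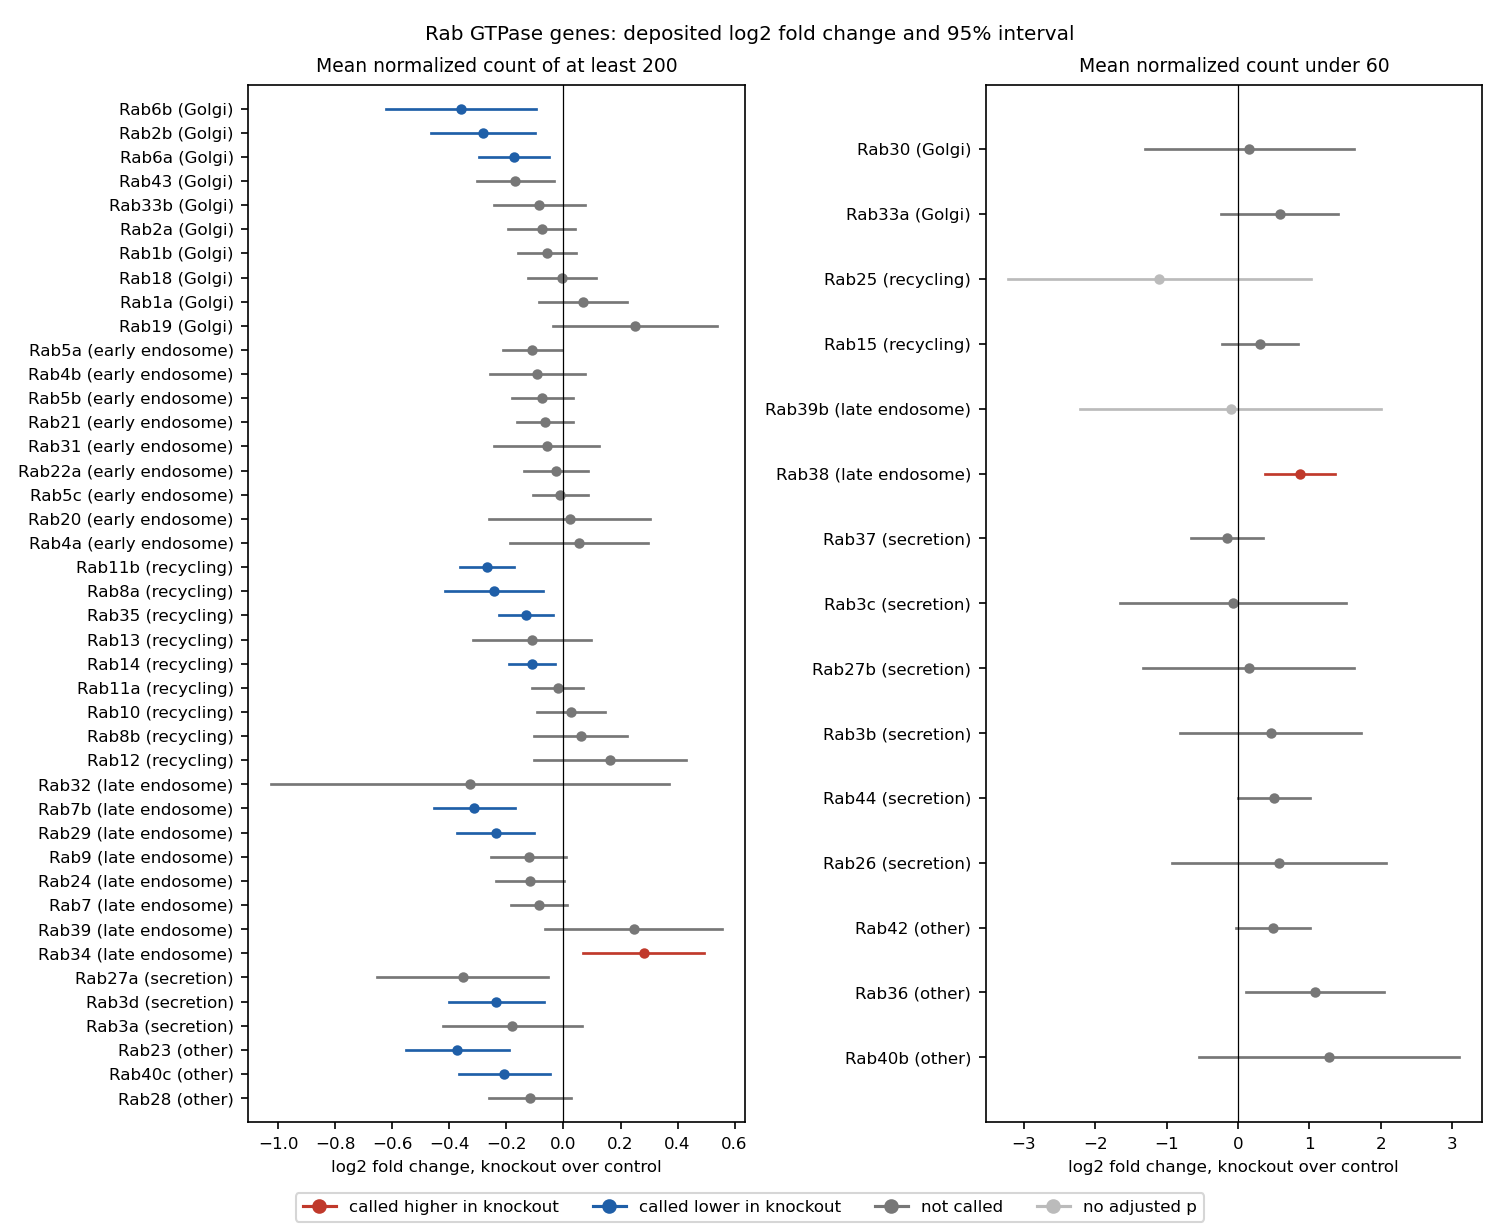
Log2 fold change, knockout over control, of each Rab gene (points) with its 95% interval (lines), grouped by cell role, for genes with a mean of at least 200 normalized counts (left) and under 60 (right, wider axis). The early endosome genes lie between -0.11 and 0.05, while the 12 genes called lower spread over the other roles, and Rab34 and Rab38 are the 2 called higher.

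Genes of the endoplasmic reticulum and Golgi steps held 12 members, of which 3 were called lower and none higher. The 3 make 25.0% of the group, against 11.7% of all genes called lower and 23.0% called in either direction. That difference was not tested. None of the 3 calls remained with the summed group means made equal. Rab6b, a Golgi Rab best known from neurons, had a derived level of 646 normalized counts in knockout cells and 828 in control cells. The authors' deposited table gave it a log2 fold change of -0.36 (SE 0.13, DESeq2 adjusted p = 0.0351). Rab6a, the widely expressed form that acts in retrograde transport at the Golgi, was at -0.17 (SE 0.06, DESeq2 adjusted p = 0.0285) in the authors' deposited table, with derived levels of 8024 in knockout and 9044 in control cells. The annotated span of Rab6a overlaps 892 bases of Mrpl48 on the opposite strand, and Mrpl48, a mitochondrial ribosomal protein gene, was also called lower, at -0.19 (with an SE of 0.06) in the authors' deposited table. The use of strand in counting is not stated. Rab2b, a Golgi-associated Rab, was at -0.28 (SE 0.09, DESeq2 adjusted p = 0.0144) in the authors' deposited table. It shares 400 bases with Tox4 on the opposite strand, and Tox4 stood at 0.00 with an SE of 0.06 and was not called in the authors' deposited table. Its relative Rab2a was at -0.08 (SE 0.06) and was not called in the authors' deposited table. Rab1a, which directs transport from the endoplasmic reticulum to the Golgi and had the highest mean of the group, was at 0.07 (SE 0.08, 95% interval -0.09 to 0.22) in the authors' deposited table.

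None of the 9 early and sorting endosome genes was called, against 23.0% of all genes called in either direction. That difference was not tested, and 9 genes are few for it. All 9 had a 95% interval within a 1.5-fold change either way. Rab5c, one of the Rab5 proteins that define the early endosome, had derived levels of 32455 normalized counts in knockout cells and 32697 in control cells. The authors' deposited table gave it a log2 fold change of -0.01 (SE 0.05, 95% interval -0.11 to 0.09). Rab5b and Rab5a were at -0.07 (SE 0.06) and -0.11 (with an SE of 0.05) in the authors' deposited table. The other 6 members, Rab4a, Rab4b, Rab20, Rab21, Rab22a and Rab31, ran from -0.09 to 0.05 in the authors' deposited table. Across the group the intervals reached from -0.26 to 0.30.

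Recycling and surface delivery genes had 4 members called lower and none higher among the 10 tested. This is 40.0%, against 11.7% of all genes called lower and 17.6% of those with a mean of at least 1000 normalized counts. That difference was not tested, and 10 genes are few for it. With the summed group means made equal, Rab11b alone of the 4 was still called. Rab11b, which acts at the recycling endosome, had the smallest adjusted p of the family. Its derived level was 8484 normalized counts in knockout cells and 10216 in control cells. The authors' deposited table listed a log2 difference of -0.27 (SE 0.05, DESeq2 adjusted p = 1.16e-06), a level 17.0% lower with a 95% interval of 11.3% to 22.3%. Its relative Rab11a, with derived levels of 9919 in knockout and 10062 in control cells, was at -0.02 (SE 0.05, 95% interval -0.11 to 0.07) in the authors' deposited table. Rab8a, which carries vesicles to the plasma membrane and the cilium, was at -0.24 (SE 0.09, DESeq2 adjusted p = 0.0279) in the authors' deposited table. Rab8b, its relative and the Rab gene with the highest mean, was at 0.06 (SE 0.08, 95% interval -0.10 to 0.22) in the authors' deposited table. Both pairs thus had 1 member called lower and 1 not called, and the difference between the members of a pair was not tested. Rab35, which returns receptors to the surface, was at -0.13 (SE 0.05, DESeq2 adjusted p = 0.0296) in the authors' deposited table. Rab14, which moves cargo between the Golgi and endosomes, was at -0.11 (SE 0.04, DESeq2 adjusted p = 0.0370) in the authors' deposited table. Rab10, Rab12, Rab13 and Rab15 were not called.

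Late endosome and lysosome genes were called in both directions, with 2 called lower and 2 higher of 9 tested (22.2% each, against 11.7% and 11.3% of all genes). These differences were not tested, and 9 genes are few for them. Rab7b, a late endosomal Rab reported to limit Toll-like receptor signalling in macrophages, had derived levels of 21971 normalized counts in knockout cells and 27284 in control cells. The authors' deposited table gave a log2 fold change of -0.31 (SE 0.07, DESeq2 adjusted p = 0.000255), a level 19.5% lower with a 95% interval of 11.1% to 27.0%. Rab7, the main Rab of late endosomes and lysosome fusion, was at -0.09 (SE 0.05, 95% interval -0.18 to 0.01) and was not called in the authors' deposited table. Rab29, which can recruit the kinase LRRK2 to membranes, was at -0.24 (SE 0.07, DESeq2 adjusted p = 0.00486) in the authors' deposited table. Rab34, linked to macropinosomes, lysosome position and cilia, had derived levels of 1609 in knockout and 1323 in control cells. The authors' deposited table gave it a log2 fold change of 0.28 (SE 0.11, DESeq2 adjusted p = 0.0421).

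Rab38, known with Rab32 for the making of melanosomes and other lysosome-related organelles, was scarce. Its derived level was 59.6 normalized counts in knockout cells and 32.7 in control cells. The authors' deposited table gave 0.87 (SE 0.25, DESeq2 adjusted p = 0.00479, 95% interval 0.37 to 1.36). Rab32 had a mean of 5315 normalized counts and a log2 fold change of -0.33 in the authors' deposited table, but an SE of 0.36 and an interval of -1.03 to 0.37. That SE was the widest among the 42 Rab genes whose mean was 200 or more. In the same comparison 18 of 19 stromal markers were called higher (against 11.3% of all genes), with a median log2 fold change of 1.86. The part of stromal cells in the values of Rab34 and Rab38 was not tested, and in bulk RNA more cells of a type and more RNA per cell cannot be told apart. All stromal markers listed had a mean above 0, the lowest being Thy1 at 6.95 normalized counts.

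Secretory Rab genes held 9 members, of which Rab3d, found on secretory granules, was called lower, at -0.23 (SE 0.09, DESeq2 adjusted p = 0.0312) in the authors' deposited table. Its derived levels were 2081 normalized counts in knockout cells and 2449 in control cells. The call of Rab3d makes 11.1% of the group, against 11.7% of all genes called lower. It was lost with the summed group means made equal. Rab3a, a relative that regulates exocytosis in neurons, was at -0.18 (SE 0.12) and was not called in the authors' deposited table. Rab27a, which moves lytic and other granules to the surface, was at -0.35 (SE 0.15, DESeq2 adjusted p = 0.0764) in the authors' deposited table.

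In the remaining group of 6, 2 members were called lower (33.3%, against 11.7% of all genes) and none higher. That difference was not tested, and 6 genes are few for it. Rab23, a brake on Hedgehog signalling in the mouse embryo, had derived levels of 348 normalized counts in knockout cells and 450.5 in control cells. Its log2 fold change of -0.37 (SE 0.09, DESeq2 adjusted p = 0.000684) was the lowest of the called Rab genes in the authors' deposited table. Rab40c, which joins a ubiquitin ligase through its SOCS box, was at -0.21 (SE 0.08, DESeq2 adjusted p = 0.0468) in the authors' deposited table. That call was lost with the summed group means made equal. It was also lost without a filter on the mean (Benjamini-Hochberg adjusted p = 0.0507, recomputed over every gene with a p from DESeq2). Its relative Rab40b, with a mean of 4.53 normalized counts, was at 1.28 (with an SE of 0.93) in the authors' deposited table. Rab36 was picked after its value was known and stood at 1.08 (SE 0.50, DESeq2 adjusted p = 0.0981) in the authors' deposited table.

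Precision followed abundance. The 42 Rab genes with a mean of at least 200 had SE between 0.04 and 0.36, and the 15 under 60 had SE between 0.25 and 1.08. Rab3b, Rab3c, Rab25, Rab26, Rab27b, Rab30, Rab39b and Rab40b, all with a mean of at most 6.51, had an SE over 0.5, and their differences could not be resolved at such low counts. Rab25 and Rab39b had no adjusted p. Of the 41 members not called, 27 had a 95% interval within a 1.5-fold change and 19 within a 1.2-fold change. For 4 of the 41, Rab5a, Rab27a, Rab36 and Rab43, the interval left out 0 although the adjusted p missed the threshold. Rab43 came nearest, at -0.17 (SE 0.07, DESeq2 adjusted p = 0.0572) in the authors' deposited table. These 4 were singled out after their values were seen.

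**Figure D2:**
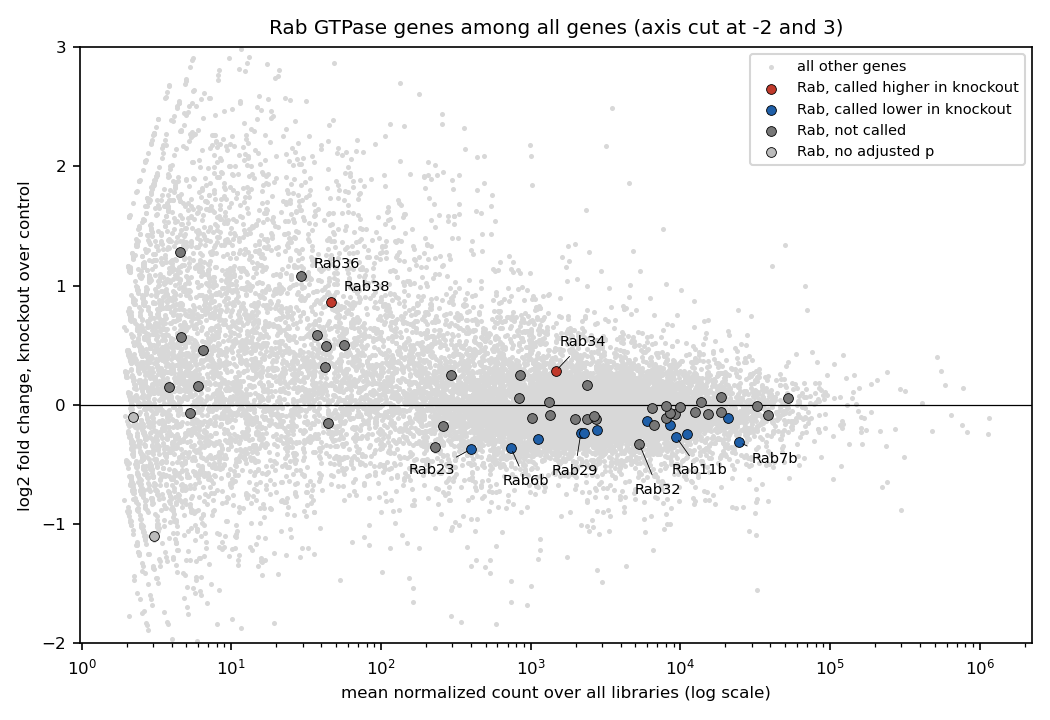
Log2 fold change, knockout over control, against the mean normalized count (log axis) for all genes (pale points) and the Rab genes (large points, coloured by call). The Rab genes called lower lie at means from 399 to 24627 and fold changes no lower than -0.37, and scarce Rab genes scatter more widely.

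Levels between genes were compared per kilobase of the longest annotated transcript. Rab7 stood at 17925 normalized counts per kilobase, Rab5c at 16561 and Rab8b at 11124, and the next were Rab14 (6736) and Rab1a (6642). With the median annotated transcript length in its place, Rab7 stood at 23355 normalized counts per kilobase and Rab5c at 27654, while Rab7b (22708), Rab14 (22436), Rab11a (18116) and Rab1b (15719) all passed Rab8b, which stayed at 11124. The order of levels between genes thus depends on which transcript is taken. The top 5 under both lengths shared 3 genes. No spread over libraries could be given for these levels. The whole family held 0.536% of all normalized counts.

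**Figure D3:**
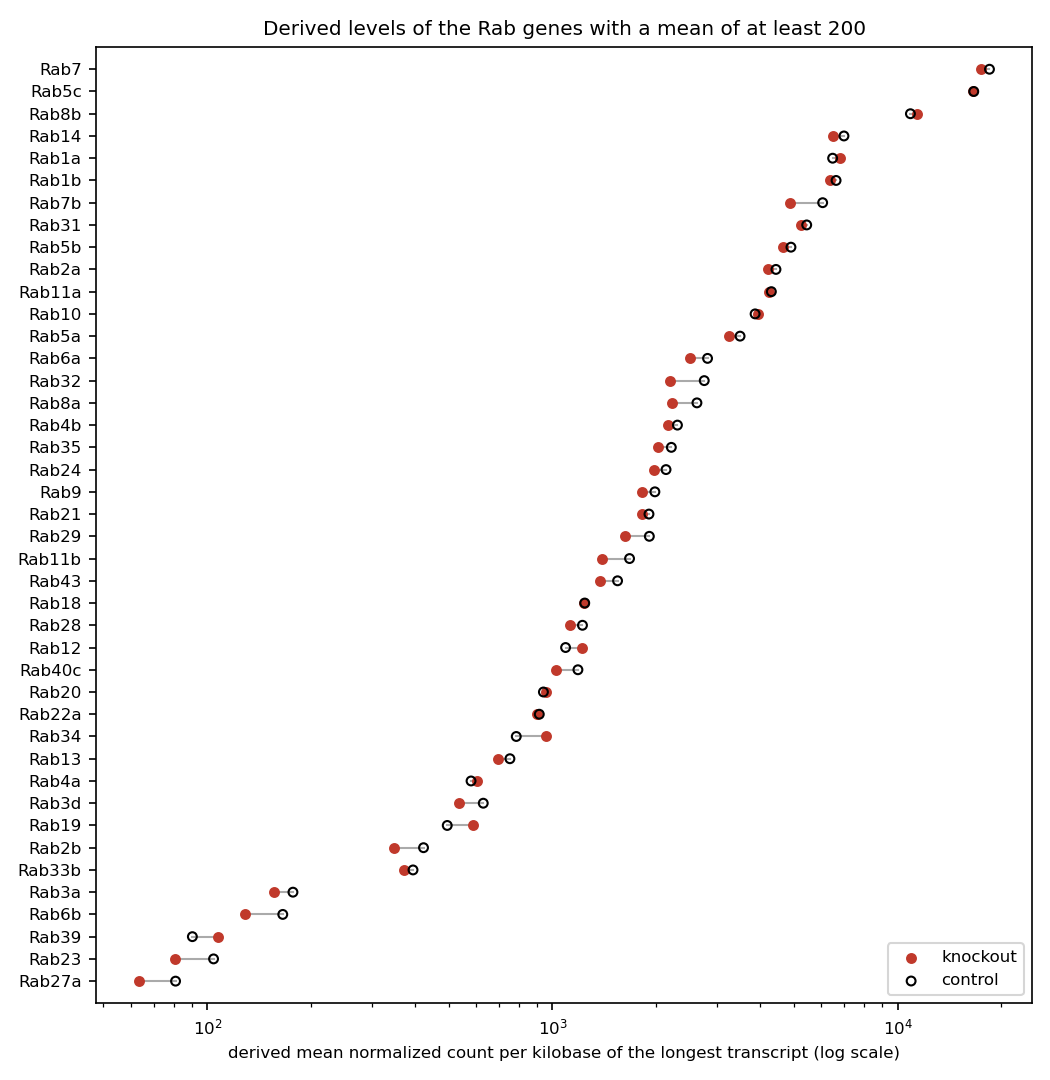
Derived level in knockout (filled points) and control (open points) cells, as mean normalized count per kilobase of the longest transcript on a log axis, for the 42 Rab genes with a mean of at least 200. Rab7, Rab5c and Rab8b lead on this length, though Rab8b does not with the median transcript length, and Rab7b and Rab11b show the gap of the genes called lower.

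Reads shared by close relatives could be split between them, and how the counting divided them was not tested. Coding sequences of Rab6a and Rab6b were 78.5% identical with no shared stretch over 14 bases, and those of Rab11a and Rab11b 75.0% identical, also with a longest shared stretch of 14 bases. Rab8a and Rab8b were 77.5% identical, with 17 bases at most in common. The longest stretch among the pairs compared was 38 bases, in Rab1a and Rab1b. No Rab gene lay within the immediate neighbourhood of the altered loci. The nearest to Lyz2 was Rab21, at 1.962 Mb, which was not called, and the nearest to the Mirc11 cluster was Rab8a, at 12.02 Mb, which was called lower. The nearest to Mirc22 was Rab24, at 7.98 Mb, which was not called.

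The Mirc11 and Mirc22 clusters encode miRNAs that pair through their seed, bases 2 to 8, with matches in 3' UTRs, and binding there commonly lowers the level of the target RNA. The levels of the miRNAs themselves were not analysed here. Their mature sequences are shown because they define the matches searched, with the seed in capitals (RefSeq, GRCm38.p6).
miR-23a-3p: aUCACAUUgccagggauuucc
miR-27a-3p: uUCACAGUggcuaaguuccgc
miR-27b-3p: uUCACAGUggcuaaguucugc
miR-24-3p: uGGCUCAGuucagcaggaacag
The forms miR-27a and miR-27b share a seed, and miR-24-3p is the same from both clusters. The letters searched on the transcript strand were AATGTGAA and its 7-base parts AATGTGA and ATGTGAA for miR-23, ACTGTGAA, ACTGTGA and CTGTGAA for miR-27, and CTGAGCCA, CTGAGCC and TGAGCCA for miR-24, with a 7-base match inside an 8-base match counted once.

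No Rab gene with a match was called higher in the knockout. Of the 55 tested members, 35 (63.6%) had a match for at least 1 of the 3 miRNAs in the longest 3' UTR, against 53.4% of all genes. The 35 had 0 called higher, against 14.8% of all genes with a match, and 10 were called lower (28.6%), against 10.6%. This comparison took no account of level, with which the calls differed. At an adjusted p under 0.01, 8.57% of the 35 were called lower, against 6.06% of all genes with a match. With the summed group means made equal, 3 of the 35 were called lower (8.57%), against 5.83% of all genes with a match, and 0 higher, against 20.8%. Those 3 were Rab11b, Rab23 and Rab29, so the count of lower calls among members with a match depends on the scaling. This recount was chosen after seeing the data. The members with a match had a median log2 fold change of -0.07 and those without one -0.04, against 0.02 and -0.04 for all genes. Both members called higher, Rab34 and Rab38, had no match. They make 10.0% of the 20 tested members without a match, against 8.96% of all genes without one. Another 2 of the 20 were called lower (10.0%, against 14.9%). The 3' UTR had a median length of 2219 bases in members with a match and 1045 bases in those without. Most matches were of 7 bases: 2 of the 55 tested members (3.64%) had an 8-base match, against 19.5% of all genes. A match is a description of the sequence and does not show that a miRNA binds there.

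One match is shown for each of 8 Rab genes called lower, beside the 8-base matches of Rab1b and Rab30, with the match in capitals (GENCODE M21, mm10). All lie in the last exon.
Rab23, miR-27, chr1:33741617-33741623, plus strand: cgggcacagagCTGTGAAgtcattgctat
Rab6b, miR-27, chr9:103184071-103184077, plus strand: ttgtcagcaaaACTGTGAgcagtgcagag
Rab29, miR-27, chr1:131872841-131872847, plus strand: ctcattcctcgACTGTGAgatgagtttat
Rab14, miR-27, chr2:35181834-35181840, minus strand: taagttcattgCTGTGAAatgactttgga
Rab11b, miR-23, chr17:33745249-33745255, minus strand: tgtctcaaaccATGTGAAagatgaggact
Rab35, miR-23, chr5:115647611-115647617, plus strand: tggtgggcccgATGTGAAactcctgtcaa
Rab8a, miR-24, chr8:72180158-72180164, plus strand: ctctgcccattCTGAGCCtgtgctcagcc
Rab6a, miR-24, chr7:100639836-100639842, plus strand: gctccaggctaTGAGCCAcaatgtccaaa
Rab1b, miR-24, chr19:5099744-5099751, minus strand: ccctgccctgcCTGAGCCAggcccatgtgc
Rab30, miR-24, chr7:92841172-92841179, plus strand: aatgacagaggCTGAGCCAtgttctgatta
Rab30, miR-27, chr7:92837917-92837924, plus strand: tatatctttctACTGTGAAtgtccctaaat
Rab8a held 4 matches in all, 3 of them for miR-24, and was 15.6% lower in the knockout. Rab43, with 5 miR-24 matches in a 3' UTR of 3737 bases, was not called, and its point estimate lay below 0. Rab1b, a Golgi Rab with an 8-base miR-24 match, was at -0.06 (SE 0.05, 95% interval -0.16 to 0.04) in the authors' deposited table. Rab30, also of the Golgi, carried 8-base matches for miR-24 and miR-27 but had a mean of 5.98 normalized counts and an interval of -1.30 to 1.62 in the authors' deposited table. Rab7b and Rab2b were called lower and had no match.

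**Figure D4:**
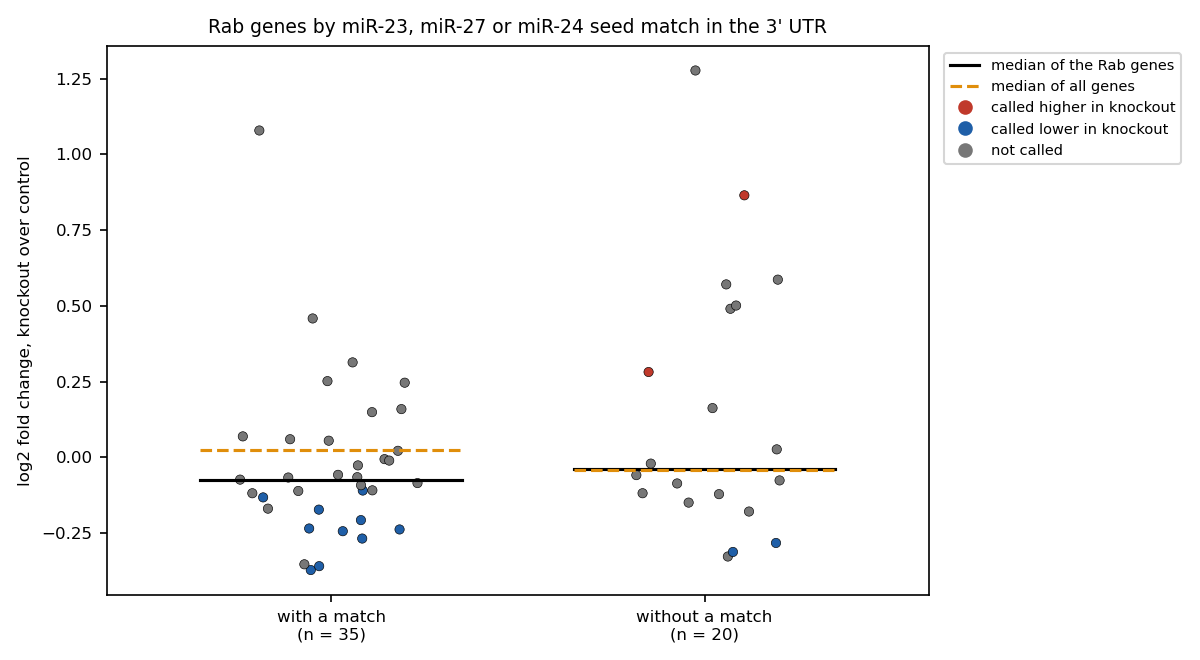
Log2 fold change, knockout over control, of the 35 tested Rab genes with a seed match for miR-23, miR-27 or miR-24 (left) and the 20 without (right), coloured by call; solid bars are the medians of the Rab genes and dashed bars the medians of all genes. No gene on the left was called higher, and the solid bar there (-0.07) lies below the dashed one (0.02).

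The regulators and effectors of Rab proteins were described from lists of known genes. Together 141 tested genes gave 12 called higher and 21 lower, a share of 23.4% against 23.0% of all genes. Of the 42 GEFs, 3 were called higher and 4 lower, a share of 16.7%. Madd, the GEF of Rab3 and Rab27 proteins, was at -0.32 (SE 0.06, DESeq2 adjusted p = 1.47e-05) in the authors' deposited table. Rabif, a chaperone of nucleotide-free Rab proteins, was at -0.28 (with an SE of 0.06) in the authors' deposited table. Dennd5b and Denn2b, with DENN domains, were at 0.75 (SE 0.18) and 0.78 (with an SE of 0.21) in the authors' deposited table, at means of 114 and 60.1 normalized counts. Of the 40 tested GAPs, 4 were called higher and 3 lower, a share of 17.5%. Tbc1d10b was at -0.26 (SE 0.04), Tbc1d17 at -0.31 (SE 0.07), Tbck at 0.23 (SE 0.06) and Tbc1d30 at 0.84 (with an SE of 0.17) in the authors' deposited table. Of the stromal markers, 18 of 19 were called higher in the same comparison, against 11.3% of all genes. The part of stromal cells in the values of these GEFs and GAPs was not tested.

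Among the 11 genes of prenylation and membrane cycling, 2 were called lower and none higher, a share of 18.2% against 23.0% of all genes called in either direction and 11.7% called lower. Rabac1, whose product PRA1 helps release Rab proteins from GDI onto membranes, had derived levels of 6150 normalized counts in knockout cells and 8697 in control cells. Its log2 fold change was -0.50 (SE 0.08, DESeq2 adjusted p = 3.34e-09) in the authors' deposited table. Rabggta, a subunit of the enzyme that prenylates Rab proteins, was at -0.18 (SE 0.06, DESeq2 adjusted p = 0.0155) in the authors' deposited table. Its call was lost with the summed group means made equal.

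Effectors were called most often of these 4 lists, with 5 higher and 12 lower of 48 tested (35.4%, against 23.0% of all genes). Gcc2, a golgin of the trans-Golgi that captures vesicles, had derived levels of 5817 normalized counts in knockout cells and 4100 in control cells. The authors' deposited table put it at 0.50 (SE 0.07, DESeq2 adjusted p = 5.21e-12). Rab11fip4, a Rab11 effector, was at 1.89 (with an SE of 0.28) in the authors' deposited table, with derived levels of 135 in knockout and 36.4 in control cells. Mical1, an actin-oxidising enzyme that binds several Rab proteins, was at -0.46 (with an SE of 0.11) in the authors' deposited table. Rilp, which links Rab7 to the dynein motor, was at -0.39 (SE 0.11, DESeq2 adjusted p = 0.00425) in the authors' deposited table. With the summed group means made equal, 10 of the 48 effectors were called, 7 higher and 3 lower. The balance between directions thus turned with the scaling, as it did over all genes (16.0% called higher and 6.57% lower). Stromal markers were higher in the same comparison (18 of 19 called, against 11.3% of all genes). The part of stromal cells in the values of the effectors was not tested.

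**Figure D5:**
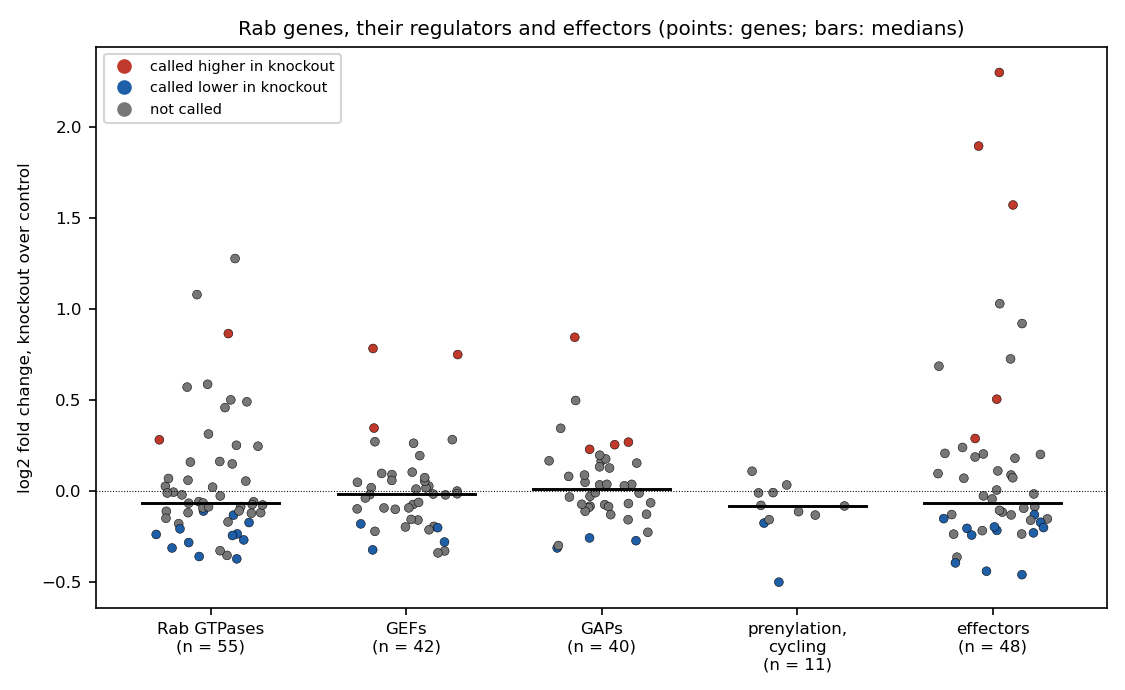
Log2 fold change, knockout over control, of the tested Rab genes and of 4 lists of regulators and effectors; each point is a gene coloured by call, and bars are medians. The medians lie between -0.08 and 0.01, and the effectors hold the genes with the widest spread, up to 2.30. That highest point is Sytl3, with a mean of 4.59 normalized counts and an SE of 0.82.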

How the data were processed

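Poly(A) RNA from 4 knockout and 4 control macrophage libraries was sequenced. FastQC, cutadapt, Salmon and DESeq2 with build mm10 are named per the submitters' processing notes, without versions, settings or roles. The deposited table gives, per the file headers, a signal (the mean normalized count over all libraries), the log2 fold change with its standard error, the Wald statistic as a score, and the p-value with its adjusted p. A second deposited table holds 8 columns of normalized values, 1 for each library, whose names match no sample label. They were not used, and depth per library was not analysed here.

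With Python 3.11.15, scipy 1.17.1 and biopython 1.88, the deposited adjusted p was recomputed and seed matches were searched, with the code tested on simulated data. The 95% interval is the log2 fold change plus or minus 1.96 SE. Group levels assume equal group sizes: with r the linear fold change, the control level is the doubled mean over 1 + r, and the knockout level is r times that. Transcript lengths, 3' UTRs and overlaps came from GENCODE M21, which matched 15188 of 15853 genes uniquely. The members and lists were chosen with earlier results of these data known. The text names every called Rab gene, uncalled ones that were most abundant in a role, related to a called one or with an SE over 0.5, and up to 4 called genes of each list by adjusted p. Alternatives changed the filter on the mean, the threshold, the scaling, the kind of match, the UTR and the transcript length. The planned test per library was replaced by the authors' deposited comparison.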

Additional observations from a re-analysis of the deposited data

How the results depend on the processing

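No paired analysis was possible because headings of the values per library match no label of a sample or replicate. For that reason leaving out a library and other pseudocounts were not run. Depth per library was not analysed here, and Rab genes with a mean of at most 6.51 normalized counts could not be resolved. No alternative added a Rab call. Of the 14 Rab calls (12 lower, 2 higher), 13 remained with no filter on the mean and 13 with the median centred at 0, Rab40c being lost in both. With a mean of at least 50, 13 remained and 1 was higher, since Rab38 was not tested. Over all genes that filter gave 15.2% called lower and 11.3% higher. At an adjusted p under 0.01, 5 remained, 4 lower and 1 higher of 55 tested. Of all genes, 6.90% were called lower and 7.16% higher there. At that threshold 4 GEFs (2 lower), 1 prenylation gene (lower) and 7 effectors (5 lower, 2 higher) were called. With the summed group means made equal, 6 Rab calls remained, 4 of them lower, against 6.57% of all genes called lower and 16.0% higher. Under it 2 GEFs and 1 prenylation gene were called lower, as were 3 of the 10 effectors called. That scaling turned 6 uncalled Rab genes positive on the log2 scale, Rab31 to 0.00418, Rab1b to 0.00505, Rab22a to 0.0362, Rab11a to 0.0422, Rab5c to 0.0522 and Rab18 to 0.0569. With a mean of at least 50, 3 effectors were called higher, since Sytl2 and Sytl3 were not tested. With 8-base matches alone, 2 Rab genes had a match and 0 of them were called lower, against 7.75% of all genes with such a match. Of the 10 Rab genes with a match called lower, 3 remained at an adjusted p under 0.01 and 3 with the summed group means made equal, a recount chosen after seeing the data. By role, the 3 Golgi calls fell to 0 and the 4 recycling calls to 1 under each of these. Using any annotated 3' UTR gave 35 Rab genes with a match, as the longest did. With the median transcript length Rab7 stood at 23355 normalized counts per kilobase. The cause of these shifts was not tested.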
